A study of Homo sapiens with 18 samples.

Results

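Expression of 9 transcription factor genes of the squamous epithelial lineage was followed in head and neck squamous cell carcinoma (HNSCC) cell lines with and without hepatocyte growth factor (HGF). The genes were chosen by name and are TP63, TP73, SOX2, KLF4, KLF5, GRHL3, ZNF750, PITX1 and PAX9, which are 9 of the 19901 genes counted. They, and the gene lists used later, were chosen with earlier results of these data known. Their counts set beside shares of all genes are therefore descriptions only. The mRNA libraries number 18. For each of the lines Detroit 562, FaDu and SCC-9 there are 3 from control cells without HGF and 3 from cells given 50 ng/ml HGF. Detroit 562 comes from a metastasis of a pharyngeal tumour, FaDu from a hypopharyngeal tumour and SCC-9 from a tongue tumour. All cells were seeded at 750000 per well, and SCC-9 alone was kept in medium with 400 ng/ml hydrocortisone, in its control and HGF wells alike. The sample records and the methods of the study give 16 h of HGF, whereas the record of the series gives 48 h, so the time stands with this conflict. Each line descends from 1 patient's tumour, so a difference between lines is a difference between these 3 cultures.

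Squamous epithelium renews itself from a basal layer of dividing cells that move outwards and differentiate into a tough barrier. The factor p63, made from TP63, holds the basal cells in their lineage, often together with SOX2 and KLF5, while KLF4, GRHL3 and ZNF750 act mainly in the differentiating layers. PITX1 and PAX9 are homeobox and paired-box factors that pattern the face and the oral epithelium. HGF, the ligand of the receptor tyrosine kinase MET, makes epithelial cells scatter and migrate.

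The genes that changed most are shown first by the 250 bases before their start sites, taken from RefSeq on GRCh38.p14, since GRHL3, TP73 and PAX9 were among the members with lower counts after HGF. RefSeq gave 13 start sites for 8 of the 9 genes, and ZNF750 had no entry. For TP63 it gave only the start at base 189631389, so the later starts of this gene, up to base 189789801, were not scanned. Capitals mark matches on either strand to the GC box GGGCGG, the SOX word ACAATG and the half-site that p63 and p73 bind.
GRHL3 first start, chr1:24319107-24319356, + strand: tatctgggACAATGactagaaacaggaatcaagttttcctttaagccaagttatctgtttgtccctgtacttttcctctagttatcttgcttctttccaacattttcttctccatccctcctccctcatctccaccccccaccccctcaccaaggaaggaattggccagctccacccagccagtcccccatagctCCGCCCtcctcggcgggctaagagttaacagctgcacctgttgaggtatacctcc
GRHL3 second start, chr1:24322790-24323039, + strand: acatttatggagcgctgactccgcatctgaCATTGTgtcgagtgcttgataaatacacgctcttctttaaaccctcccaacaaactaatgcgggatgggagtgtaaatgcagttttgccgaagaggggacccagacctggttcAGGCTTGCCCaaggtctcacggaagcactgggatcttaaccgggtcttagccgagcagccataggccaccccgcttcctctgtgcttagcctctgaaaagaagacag
TP73 second start, chr1:3690422-3690671, + strand: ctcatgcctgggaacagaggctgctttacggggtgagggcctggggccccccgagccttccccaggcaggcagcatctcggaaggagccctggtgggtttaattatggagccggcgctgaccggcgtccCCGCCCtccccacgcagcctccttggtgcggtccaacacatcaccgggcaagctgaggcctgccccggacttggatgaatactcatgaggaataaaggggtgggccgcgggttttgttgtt
PAX9 second start, chr14:36661610-36661859, + strand: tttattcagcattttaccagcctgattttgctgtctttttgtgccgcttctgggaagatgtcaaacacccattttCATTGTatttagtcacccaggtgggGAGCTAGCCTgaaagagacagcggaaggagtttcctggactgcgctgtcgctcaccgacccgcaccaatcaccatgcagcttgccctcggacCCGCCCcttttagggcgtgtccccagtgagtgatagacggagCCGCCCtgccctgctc
The p63 and p73 half-site lay 107 bases before the second start of GRHL3 and 150 bases before the second start of PAX9, counted to the first base of the match. These were 2 of the 13 windows, and 5.57% of all 35114 RefSeq promoter windows of this length held the half-site. The SOX word was in 4 of the 13 windows, which belonged to KLF5, GRHL3 and PAX9, against 9.29% of all windows. A GC box was in 7 of the 13 windows against 42.6% of all. The GRHL word AACCNGTT, the KLF word CCACACCC and the AP-1 word TGANTCA, held by 1.49%, 2.97% and 6.57% of all windows, were in none of the 13. A match is a run of letters and not a measured binding site.

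The gene positions in the deposited table are on GRCh38, and reads were counted over the whole extent of each gene, introns included, on 1 strand. TP63 spans bases 189631416 to 189897279 of chromosome 3 and TP73 bases 3652520 to 3736201 of chromosome 1. Both genes have 6 start positions among their coding transcripts, spread over 158412 and 45542 bases, so full-length and shortened (delta N) forms of p63 and p73 are summed in 1 count. SOX2 lies on chromosome 3 (181711924 to 181714436), KLF4 on chromosome 9 (107484852 to 107490482), KLF5 on chromosome 13 (73054976 to 73077542) and GRHL3 on chromosome 1 (24319322 to 24364482). ZNF750 lies on chromosome 17 (82829435 to 82840578), PITX1 on chromosome 5 (135027735 to 135034813) and PAX9 on chromosome 14 (36657568 to 36679715). No member overlaps another gene of the deposited table on its own strand, and genes outside that table were not checked. TP73, GRHL3, ZNF750 and PAX9 overlap WRAP73, STPG1, TBCD and SLC25A21 on the opposite strand.

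All 9 members passed the filter on low counts, as did 15475 of all 19901 genes. Total counts per library ran from 35304770 to 44003970. The 9 epithelial markers used to check the lines (KRT5, KRT14, KRT6A, KRT17, DSG3, PKP1, SFN, CDH1 and EPCAM) all averaged at least 1 CPM, the depth-scaled read count, in every group. KRT14, though, was at 1.23 CPM in untreated Detroit 562 against 391 in FaDu and 2913 in SCC-9. Of the 5 leukocyte markers only CD14 reached 1 CPM, in FaDu and SCC-9. Of the 8 fibroblast markers 2 reached 1 CPM in untreated Detroit 562, 1 in FaDu and 4 in SCC-9, among them the collagen gene COL1A1 at 77.9 CPM and FAP at 42.6 CPM in SCC-9. MET itself stood at 793 CPM in untreated Detroit 562, against 148 for FaDu and 289 for SCC-9.

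Without HGF, most of the 9 genes differed between the lines beyond the spread of their replicates. The rule for a call was a log2 difference of 0.4 or more in either direction with an adjusted p under 0.1, by edgeR over all 15475 genes. Levels per length are given as RPKM, the depth-scaled read count per kilobase of exon. The reads counted include those of introns, while the length does not, and the share of intron reads was not tested. KLF5, a Krüppel-like factor of proliferating epithelium, was the highest member in all 3 lines, with 78.4 ± 7.23 RPKM for Detroit 562, 27.02 ± 1.79 for FaDu and 30.9 ± 3.39 for SCC-9 (mean ± SD, n = 3 each). In FaDu its range overlapped that of TP63, the second gene there, at 26.1 ± 3.28 RPKM. In Detroit 562 the order went on with SOX2 at 25.6 ± 2.97, PAX9 at 18.9 ± 1.00, PITX1 at 17.6 ± 1.48 and TP63 at 15.4 ± 2.26 RPKM, and PAX9 and PITX1, and PITX1 and TP63, overlapped. GRHL3 at 8.29 ± 2.54 and KLF4 at 7.21 ± 0.641 RPKM also overlapped, and TP73 at 1.75 ± 0.477 and ZNF750 at 0.885 ± 0.349 RPKM closed the order. FaDu closed with TP73 at 0.848 ± 0.0940 and GRHL3 at 0.611 ± 0.211 RPKM, whose ranges overlapped. SCC-9 closed with SOX2 at 0.0548 ± 0.0191 RPKM. The order depends on the exon length used, 7452 bases for TP63 and 3679 for KLF5. By mean CPM, without length, TP63 stood above KLF5 in untreated FaDu (194.2 against 99.39) and SCC-9 (148 against 113.5).

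**Figure D1:**
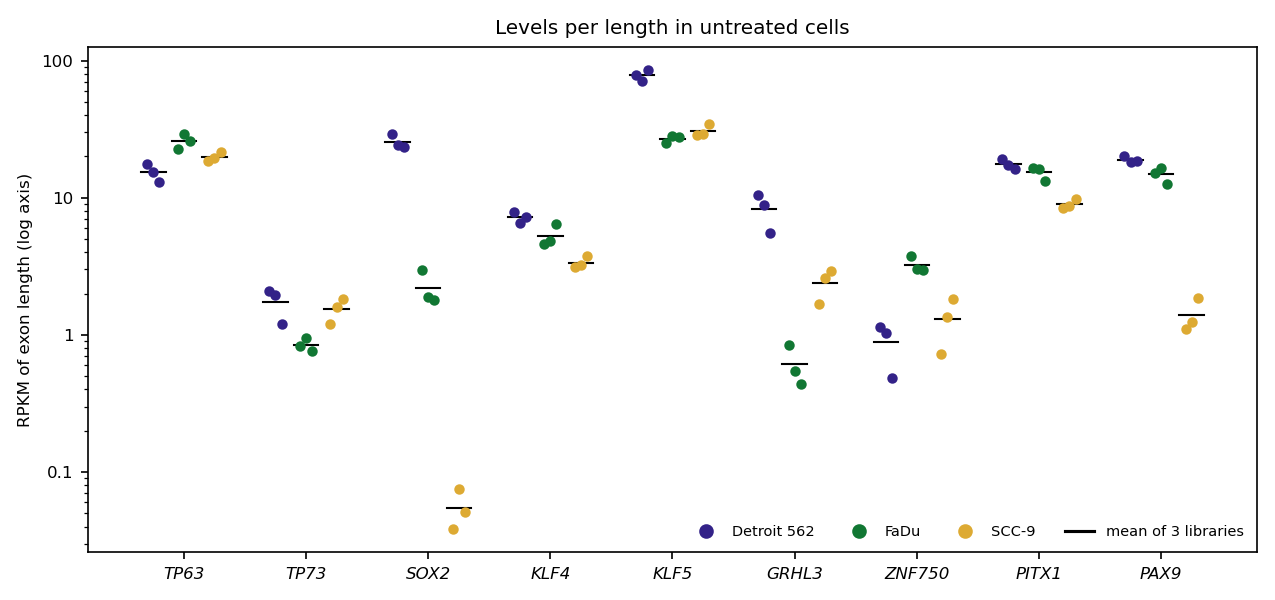
RPKM of each gene in the 3 untreated libraries of each line on a log axis, with black bars for means. By RPKM KLF5 leads in every line, and SOX2 spans the widest range, from 25.6 RPKM in Detroit 562 to 0.0548 in SCC-9.

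The widest gap between lines was that of SOX2, a factor of stem and progenitor cells that is often amplified in squamous carcinomas. Its CPM, scaled by library sizes with TMM factors, which correct for library composition, was 72.7, 61.3 and 58.8 in the Detroit 562 controls and 7.41, 4.77 and 4.48 in those of FaDu. The SCC-9 controls had 0.0957, 0.190 and 0.127 CPM, from only 4, 8 and 5 reads. The 3 lines did not overlap. The log2 difference between Detroit 562 and FaDu was 3.53 ± 0.17 (SE). Between Detroit 562 and SCC-9 it was 8.83, a value that rests on the few reads of SCC-9, too few for a reliable SE.

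PAX9, a paired-box factor of oral and oesophageal epithelium, had 114, 104 and 105 CPM in the Detroit 562 controls and 86.3, 94.2 and 71.5 in FaDu. SCC-9 had 6.24, 7.03 and 10.6 CPM. SCC-9 stood well below both other lines, with log2 differences of 3.76 ± 0.23 from Detroit 562 and 3.40 ± 0.23 from FaDu (adjusted p = 1.52e-10 and 5.16e-10). Detroit 562 and FaDu differed by 0.36 ± 0.20, which was not called (adjusted p = 0.115).

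GRHL3, a grainyhead factor of barrier formation, had 40.7, 34.8 and 21.4 CPM in the Detroit 562 controls. FaDu had 3.30, 2.14 and 1.71 CPM and SCC-9 6.53, 10.1 and 11.4. Detroit 562 was therefore highest and FaDu lowest, 3.76 ± 0.34 on the log2 scale apart (adjusted p = 2.64e-08), with no overlap among the lines. ZNF750, a zinc finger factor of terminal differentiation, ran the other way between these lines, with 3.58, 3.26 and 1.54 CPM in Detroit 562 and 11.8, 9.62 and 9.46 in FaDu. The log2 difference was -1.88 ± 0.36 (adjusted p = 0.000189). SCC-9, at 2.27, 4.28 and 5.81 CPM, overlapped Detroit 562 and was not called different from it (log2 -0.55 ± 0.37, adjusted p = 0.18), although a fit blocked on replicate number made the call (log2 -0.58, adjusted p = 0.00343).

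Over all members, 7 of 9 were called different between untreated Detroit 562 and FaDu, 5 higher and 2 lower, where 61% of the 15475 genes tested were called. Shares of all genes are over these tested genes wherever edgeR made the call. DESeq2 shares are over the genes to which it gave an adjusted p. These were 16491 in FaDu, and 14222 in SCC-9 and in the response of Detroit 562 against SCC-9. Between Detroit 562 and SCC-9, 6 of 9 were called, all higher, where 31.4% of all genes were called higher and 65.4% in either direction. FaDu and SCC-9 differed in 7 of 9, with 5 higher and 2 lower, against 64.2%. Most genes tested thus differed between the lines by the same rule. TP63 was highest in FaDu, and TP73, its relative, was lowest there at 5.65, 6.40 and 5.14 CPM. TP63 was 0.76 ± 0.13 lower on the log2 scale in Detroit 562 than in FaDu (adjusted p = 6.95e-05), while TP73 was 1.04 ± 0.25 higher (adjusted p = 0.00132). KLF4, a factor of differentiating layers, was called higher in Detroit 562 than in FaDu at 0.44 ± 0.13, but lost the call without Detroit 562 control 1 (0.38), FaDu control 1 (0.35) or FaDu control 2 (0.39), when it came under the limit of 0.4.

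With HGF in Detroit 562, 4 of the 9 factors fell, 0 rose, and the remaining 5 had lower means that did not meet the rule. By the rule for a call 11.7% of all genes fell in this line and 6.16% rose. The median log2 difference was -0.39 over the members and -0.0056 over all genes. In 6 of the 9 genes every HGF library lay below every control, which 20.1% of all genes did. From bulk RNA, fewer expressing cells and less RNA per cell cannot be told apart.

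**Figure D2:**
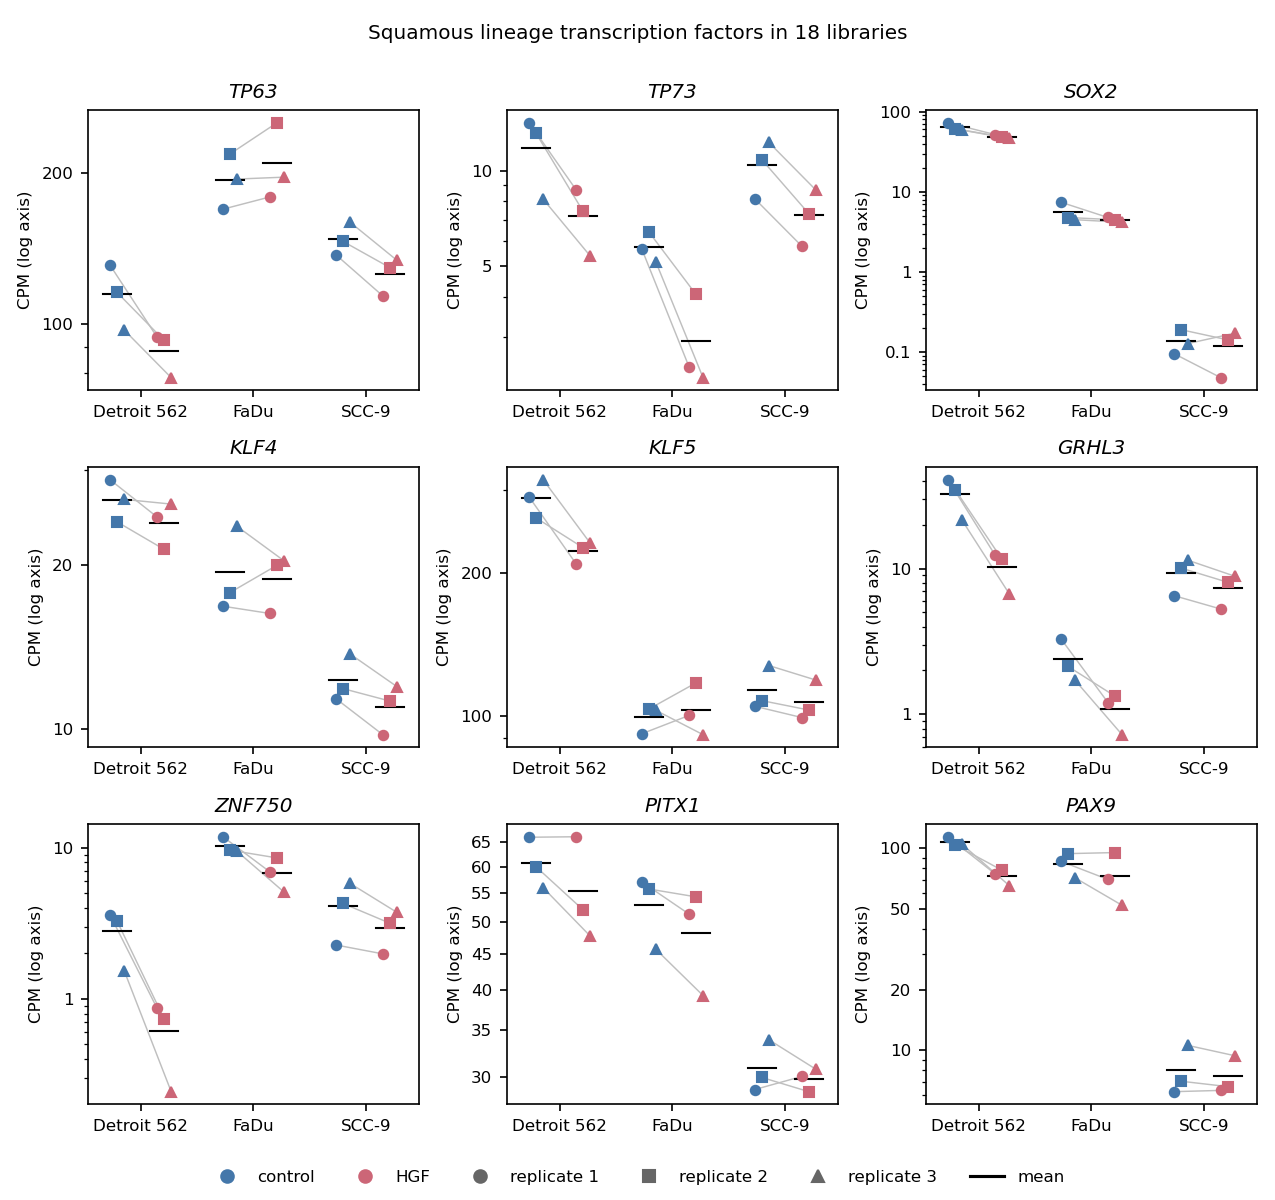
CPM of each factor in all 18 libraries on log axes, controls in blue and HGF in red, with a marker shape for each replicate number, grey lines joining libraries of the same number and black bars for means. TP73, GRHL3 and ZNF750 drop in all 9 pairs, as 8.42% of all genes tested do.

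ZNF750 had the largest response. Its CPM was 3.58, 3.26 and 1.54 in the Detroit 562 controls and 0.866, 0.738 and 0.243 with HGF, from 152, 120 and 57 reads to 35, 26 and 8. Every HGF library lay below every control, and the fall was 2.15 ± 0.45 on the log2 scale (4.44-fold, adjusted p = 0.00386). This was the place 75 from the lowest among 15475 genes. TBCD, the gene that encloses it on the other strand, had 83.0 CPM in controls and 72.7 with HGF (log2 -0.19 ± 0.06, adjusted p = 0.0257). The part of reads assigned to the wrong strand was not tested.

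GRHL3 fell by 1.66 ± 0.30 on the log2 scale in Detroit 562 (3.16-fold, adjusted p = 0.00197), from 40.7, 34.8 and 21.4 CPM to 12.4, 11.6 and 6.72. The groups did not overlap, and the 3 pairs gave log2 ratios of -1.72, -1.59 and -1.67, nearly the same although the controls themselves varied 1.90-fold. STPG1, which overlaps it on the other strand, was at 16.7 CPM in controls and 20.3 with HGF (log2 0.28, adjusted p = 0.112). The calls of GRHL3 and ZNF750 were made without each of the 6 Detroit 562 libraries in turn.

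TP73, which encodes p73, fell by 0.72 ± 0.25 on the log2 scale (adjusted p = 0.045). Its controls had 14.2, 13.1 and 8.13 CPM and its HGF libraries 8.71, 7.44 and 5.39. The lowest control lay below the highest HGF library, so the groups overlapped, while each pair was lower with HGF. The call was lost without Detroit 562 control 1 (log2 -0.56, adjusted p = 0.196), control 2 (-0.63, 0.143) or HGF 3 (-0.55, 0.174).

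PAX9 fell by 0.57 ± 0.20 (adjusted p = 0.0468), from 114, 104 and 105 CPM to 74.8, 77.9 and 65.5, with no overlap. Its call was lost without Detroit 562 control 1 (log2 -0.52, adjusted p = 0.15) or HGF 3 (-0.49, 0.147). Without control 1 alone, 2 of the 9 members were left as called.

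The basal factors moved less. TP63 had 131, 116 and 97.5 CPM in Detroit 562 controls and 94.4, 92.9 and 78.4 with HGF, a log2 difference of -0.37 ± 0.13 (adjusted p = 0.0482) that stayed under the size limit. SOX2 had 72.7, 61.3 and 58.8 CPM and then 51.7, 48.5 and 46.3, a difference of -0.39 ± 0.15 (adjusted p = 0.0577). KLF5 had 290, 262 and 315 CPM and then 209, 226 and 231, a difference of -0.38 ± 0.10 (adjusted p = 0.015). In these 3 genes the HGF libraries all lay below the controls and the adjusted p passed, so by edgeR they missed the call by size alone. TP63 was called without control 3 (log2 -0.48), HGF 1 (-0.42) or HGF 2 (-0.41). SOX2 was called without control 3 (-0.46) or HGF 1 (-0.44), and KLF5 without control 2 (-0.44) or HGF 3 (-0.41). DESeq2 without its prior called SOX2 lower with all libraries (log2 -0.4014, adjusted p = 0.044).

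KLF4 and PITX1 gave the smallest differences in Detroit 562. KLF4 had 28.7, 24.0 and 26.4 CPM in controls and 24.5, 21.4 and 25.9 with HGF (log2 -0.14 ± 0.13, adjusted p = 0.461). PITX1, a homeobox factor of the first pharyngeal arch, had 66.1, 59.9 and 56.0 CPM and then 66.2, 52.0 and 47.7 (log2 -0.13 ± 0.13, adjusted p = 0.485). Both genes overlapped between the groups.

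**Figure D3:**
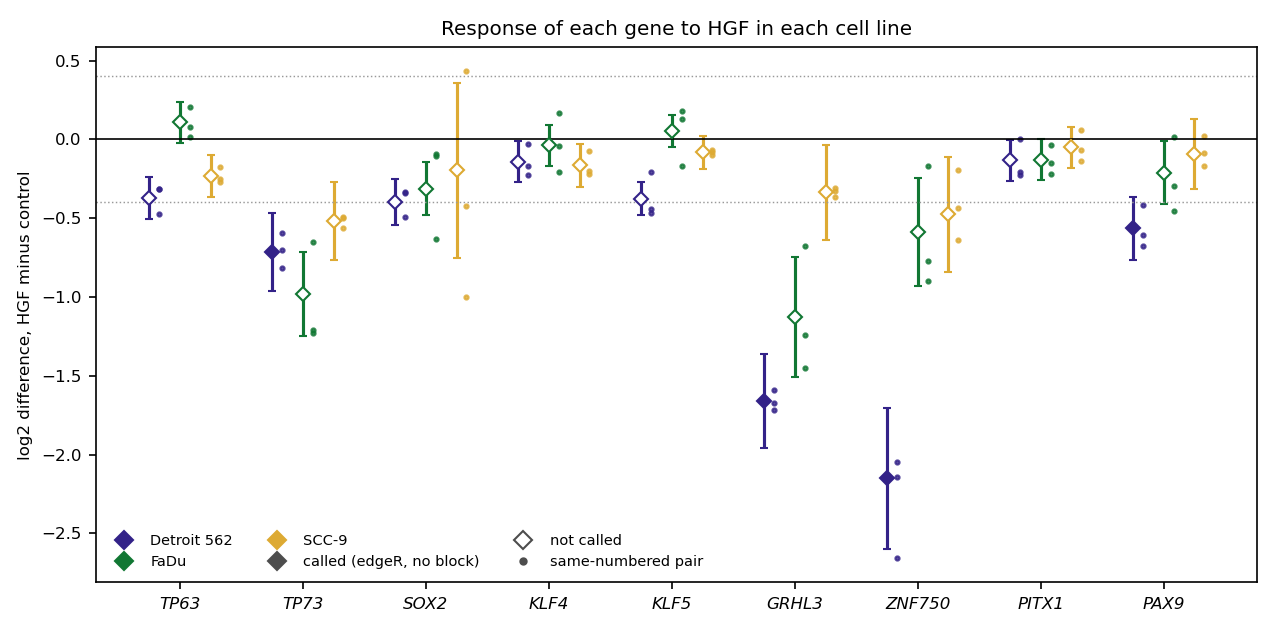
Log2 difference of HGF minus control for each factor in each line, from edgeR without a replicate block, with SE bars, filled where called, and small points for the 3 same-numbered pairs. The dotted lines mark the size limit of 0.4. Filled symbols are those of TP73, GRHL3, ZNF750 and PAX9 in Detroit 562.

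In FaDu no member was called by edgeR without a block (0 of 9), as 0% of all genes fell and 0.0258% rose by the same rule, and 2 of 9 members had an unadjusted p under 0.05. DESeq2 called 1, TP73, lower, as it did 0.115% of all genes. Libraries of the same number varied together, so the replicate number pairs them. With it as a block 3 of 9 fell, TP73, GRHL3 and ZNF750, where 3.6% of all genes fell. TP73 went from 5.65, 6.40 and 5.14 CPM to 2.41, 4.07 and 2.23, with no overlap and a log2 difference of -0.98 ± 0.27 (adjusted p = 0.436 without the block; -1.004 and 0.000125 with it). GRHL3, which is scarce in FaDu, went from 3.30, 2.14 and 1.71 CPM to 1.21, 1.33 and 0.726, from 139, 85 and 73 reads to 52, 53 and 30. Its log2 difference was -1.13 ± 0.38 (adjusted p = 0.527, and 0.000243 with the block).

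ZNF750 in FaDu had 11.8, 9.62 and 9.46 CPM in controls and 6.91, 8.55 and 5.08 with HGF, also with no overlap. The log2 difference was -0.59 ± 0.34 (adjusted p = 0.647, and 0.00574 with the block). The absence of overlap was thus met by these 3 members, against 5.36% of all genes. The other 6 factors had differences between -0.31 (SOX2) and 0.11 (TP63) on the log2 scale. TP63 had 170, 218 and 195 CPM in FaDu controls and 179, 252 and 196 with HGF, higher in each pair, with an adjusted p of 0.833. KLF5 gave 0.052 and PAX9 -0.21.

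In SCC-9 again 0 of 9 were called by edgeR without a block, as for 0% of all genes, and 0 had an unadjusted p under 0.05. DESeq2 also called 0 members and 0.12% of all genes. With the block 1 fell, TP73, while 1.41% of all genes fell. TP73 had 8.16, 10.8 and 12.3 CPM in SCC-9 controls and 5.78, 7.32 and 8.69 with HGF. The groups overlapped, but the 3 pairs gave log2 ratios of -0.50, -0.57 and -0.50, and the fitted difference was -0.52 ± 0.25 (adjusted p = 1 without and 0.00815 with the block). GRHL3 had 6.53, 10.1 and 11.4 CPM and then 5.28, 8.05 and 8.86 (log2 -0.34 ± 0.30, adjusted p = 0.0543 with the block, under the size limit). ZNF750 had 2.27, 4.28 and 5.81 CPM and then 1.98, 3.17 and 3.73 (log2 -0.48 ± 0.37, adjusted p = 0.139 with the block). TP63 was the only member without overlap in SCC-9, where 9.12% of all genes had every HGF library below every control. It had 138, 146 and 160 CPM in controls and 114, 130 and 134 with HGF, lower in each pair, against the higher values in each pair of FaDu. The log2 difference was -0.23 ± 0.13 (adjusted p = 1, and 0.0153 with the block), under the size limit. SOX2 was counted 4, 8 and 5 times in controls and 2, 6 and 7 times with HGF, so no response of it was detectable at this depth.

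Averaged over the 3 lines, TP73, GRHL3 and ZNF750 fell. The mean log2 differences were -0.74 ± 0.15, -1.04 ± 0.19 and -1.07 ± 0.22 (adjusted p = 0.00506, 0.00368 and 0.0066), where 4.88% of all genes fell. These 3 genes were called without each of the 18 libraries in turn. They were also the members that were lower with HGF in 9 of 9 same-numbered pairs, as 8.42% of all genes were. PAX9 averaged -0.29 ± 0.12, below the size limit, and was lower in 7 of 9 pairs. SOX2 and KLF4 were lower in 8 of 9 pairs, KLF5 and PITX1 in 7 and TP63 in 6, with mean differences from -0.30 to -0.10.

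**Figure D4:**
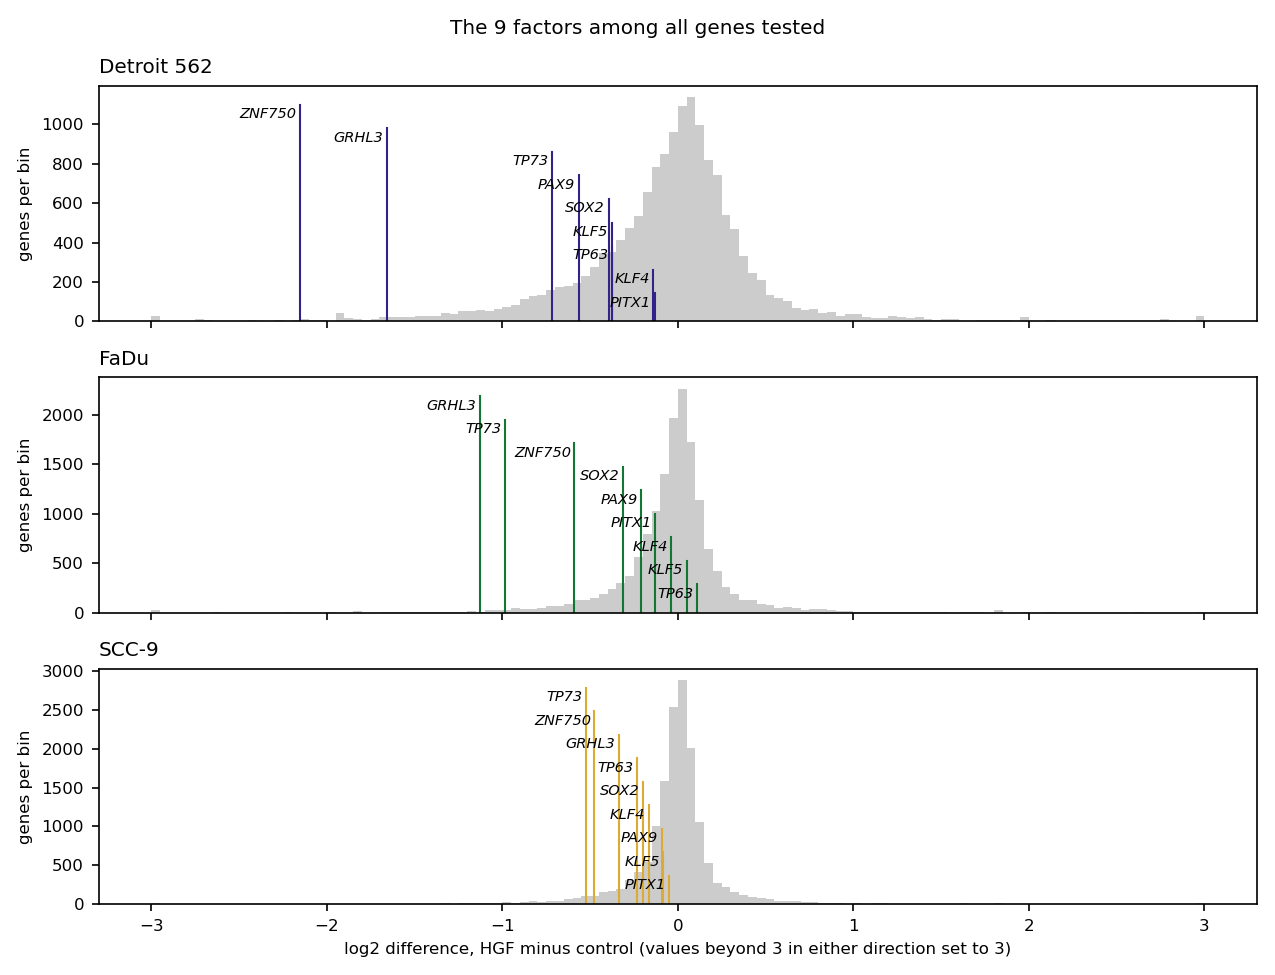
Histograms of the log2 differences of all 15475 genes tested in each line, in bins of 0.05, with a line for each factor. GRHL3 and ZNF750 lie in the far left tail of Detroit 562, GRHL3 and TP73 in that of FaDu, and TP73 is the lowest of the 9 in SCC-9.

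Whether the lines differed in their response was tested as the difference between their HGF contrasts, called at an adjusted p below 0.1. Without the block 0 of 9 members were called in any of the 3 comparisons, beside 0.239%, 0.924% and 0% of all genes, with 3, 2 and 0 members at an unadjusted p under 0.05. ZNF750 fell further in Detroit 562 than in FaDu by 1.56 ± 0.57 and than in SCC-9 by 1.68 ± 0.58 on the log2 scale (adjusted p = 0.328 and 0.207). With the block both were called (adjusted p = 0.00211 and 0.000863). GRHL3 differed by -1.32 ± 0.42 between Detroit 562 and SCC-9 (adjusted p = 0.177, 1.66e-05 with the block, and 0.0712 by DESeq2). DESeq2 called the response of 2 members, GRHL3 and ZNF750, more negative in Detroit 562 than in SCC-9, against 2.36% of all genes.

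With the block the response of 5 of 9 differed between Detroit 562 and FaDu (TP63, KLF5, GRHL3, ZNF750 and PAX9). All 5 responses were more negative in Detroit 562, against 8.98% of all genes in that direction. Between Detroit 562 and SCC-9 the response of 4 of 9 differed in the same direction (KLF5, GRHL3, ZNF750 and PAX9), against 13.2%. FaDu and SCC-9 differed in the response of 2 members. That of TP63 was higher in FaDu by 0.33 and that of GRHL3 lower by 0.80 on the log2 scale (adjusted p = 0.0344 and 0.0455), against 0.808% and 0.511% of all genes. TP73 was called in none of the 3 comparisons, its differences in response being 0.27 ± 0.36, -0.19 ± 0.35 and -0.46 ± 0.36. The 3 comparisons share libraries, so they are not independent of each other.

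Around these factors, 4 lists of related genes moved unevenly in Detroit 562, where 11.7% of all genes fell and 6.16% rose. Of 18 basal squamous genes 6 rose and 4 fell, with a median log2 difference of -0.043. PTHLH, a parathyroid hormone relative, rose by 0.83 ± 0.24 (adjusted p = 0.0185), the calcium-binding S100A2 by 0.78 and the integrin ITGA6 by 0.67. In the same list the keratin gene KRT15 fell by 2.26 ± 0.47, from 136 to 28.3 CPM on average (adjusted p = 0.00405). TRIM29 fell by 1.32, the basal keratin gene KRT5 by 0.90 and the growth factor receptor gene FGFR2 by 0.82.

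The squamous differentiation genes leaned lower, with 9 of the 31 tested falling and 1 rising, from 38 in the list. These stand beside 11.7% and 6.16% of all genes, and the median of the list was -0.24. The mucosal keratin gene KRT13 fell by 2.02 ± 0.62, from 179 to 44.1 CPM on average (adjusted p = 0.0258). The cross-linking enzyme gene TGM1 fell by 1.86 ± 0.37 (adjusted p = 0.00321), the cornified envelope gene IVL by 1.47 ± 0.32 (adjusted p = 0.0046) and the keratin gene KRT1 by 1.25 ± 0.28 (adjusted p = 0.0054). The 1 that rose was ALOXE3, a lipoxygenase gene of the skin barrier with few reads, by 1.12 (adjusted p = 0.0243), named after its value was seen.

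Of the 34 other epithelial transcription factors tested, 13 fell and 4 rose, beside 11.7% and 6.16% of all genes, with a median of -0.26. ELF3, an epithelial ETS factor, fell by 1.41 ± 0.36 (adjusted p = 0.0111), the homeobox gene DLX5 by 1.15, CEBPA by 0.89 and the forkhead gene FOXQ1 by 0.84. SOX9 rose by 1.85 ± 0.38, from 2.34 to 8.39 CPM on average (adjusted p = 0.00344), HOPX by 0.75, the basal factor BNC1 by 0.71 and SOX15 by 0.59. Of 25 partners and regulators of the 9 factors 2 fell and 0 rose, beside 11.7% and 6.16% of all genes. The median of this list was 0.045. FBXO32, an F-box gene, was among those that fell (-1.13 ± 0.43, adjusted p = 0.0638).

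In FaDu and SCC-9 edgeR without a block called 0 genes of any list, as for 0.0258% and 0% of all genes. The blocked fit called 2% of all genes higher in FaDu and 0.562% in SCC-9, beside the shares lower given above. By it FaDu had 5 basal genes higher and 3 lower, 2 differentiation genes higher and 6 lower, 1 other factor higher and 5 lower, and 1 partner in each direction. SCC-9 had 2 basal genes, 0 differentiation genes, 4 other factors and 1 partner lower, and 0 higher. The median log2 differences of the differentiation list were -0.33 in FaDu and -0.024 in SCC-9.

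**Figure D5:**
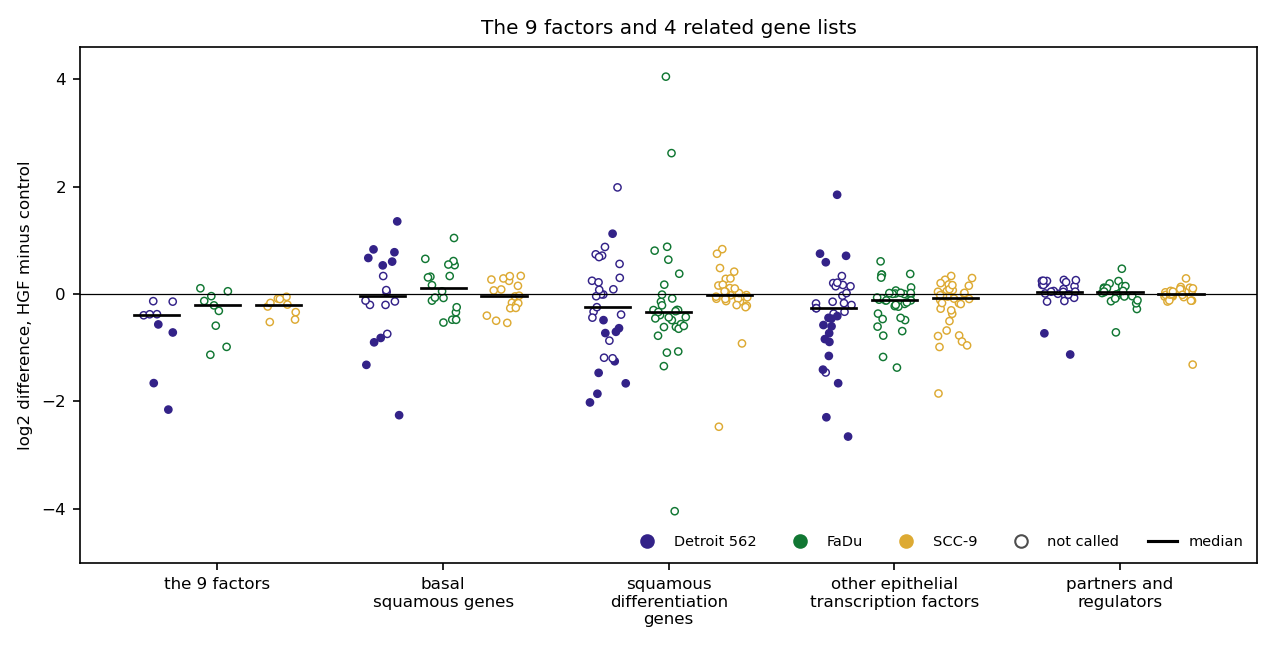
Log2 difference of HGF minus control for the 9 factors and for the tested genes of each list, by line, from edgeR without a block, filled where called, with black bars for medians. The called genes of Detroit 562 lie on both sides of 0 in the basal list and mostly below 0 in the differentiation list.

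Some markers of cell type moved with these changes in Detroit 562. Of the 9 epithelial markers used to check the lines 3 fell and 0 rose, beside 11.7% and 6.16% of all genes. Those that fell were the keratin gene KRT5, from 2105 to 1129 CPM on average, the junction gene PKP1, from 55.9 to 33.8, and the cadherin gene CDH1, from 302 to 215. The summed CPM of the 9 ran from 3445 to 4789 in controls and from 2460 to 3801 with HGF, a drop that lay mainly in KRT5. KRT6A, KRT17, SFN and EPCAM had log2 differences of 0.0057, 0.10, 0.22 and 0.21 and were not called. DSG3 and KRT14 had lower means, with log2 differences of -0.74 and -0.20, and were not called without the block. With the block DSG3 was called lower (adjusted p = 7.28e-05). Of the 4 simple epithelial keratins, which summed to 5059 to 7560 and 3061 to 4695 CPM, KRT8 and KRT19 fell. The 8 fibroblast markers summed to 30.2 to 54.6 and 15.3 to 27.8 CPM, with COL1A1 and COL1A2 falling, the other 6 below 1 CPM and PDGFRB at 0 in both groups. The 3 endothelial markers summed to 1.158 to 2.899 and 0.487 to 1.06 CPM. Of these VWF fell, from 1.72 to 0.391 CPM on average (adjusted p = 0.0281), and PECAM1 and CDH5 were below 1 CPM. The 5 leukocyte markers stayed below 0.297 CPM in both groups. Their part in the changes of the 9 factors was not tested.

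Within the 9 factors GRHL3 and ZNF750 followed each other most closely across the 18 libraries. After the mean of each line was taken out, their log2 CPM correlated at a Pearson r of 0.935, TP73 and GRHL3 at 0.88 and TP73 and ZNF750 at 0.802. KLF4 was the least tied, with r from -0.0643 (PITX1) to 0.529 (KLF5). The libraries share lines, treatments and replicate numbers, so these values describe the libraries and carry no p. Among 13146 other genes the most like GRHL3 were ST6GALNAC2 and LRP11 (both 0.979), the most like ZNF750 were RBBP8NL (0.985) and LYPD6B (0.977), and the most like TP73 were GPRIN2 (0.96) and HSPB1 (0.937). RBBP8NL fell by 2.14 in Detroit 562 (adjusted p = 0.00157), and GPRIN2 by 0.85 (adjusted p = 0.0293). For TP63 they were IGSF3 (0.912) and LRRC75B (0.909), for PAX9 IL1RN (0.941) and SLITRK6 (0.94), for PITX1 UQCRC1 (0.93) and ARF5 (0.917), and for KLF5 SLC44A5 and DOPEY2 (both 0.865). SOX2 was most like SLC27A2 (0.885) and GGT6 (0.853), and KLF4 most like SERPINB7 (0.858) and IRF7 (0.837).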

How the data were processed

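The authors made stranded, poly(A)-selected mRNA libraries, trimmed the single-end reads with Cutadapt (1.16 in the submitters' processing notes, while the methods also name a later version), aligned them with STAR 2.5.2b to GRCh38.p12 with GENCODE annotation and counted with bedtools. The deposited values are raw counts, whole numbers per gene extent on the gene's strand, without normalization. The tests used edgeR 4.0.16 under R 4.3.3 (filterByExpr, TMM, quasi-likelihood test, 1 mean per line and treatment, all 18 libraries) and DESeq2 1.42.0 as an alternative. Adjusted p values are Benjamini-Hochberg over 15475 genes and from edgeR unless DESeq2 is named. The SE of a log2 difference is its absolute value divided by the square root of the F statistic of the edgeR test, an approximation. The exact permutation test of 3 against 3 libraries cannot go below 0.1. RPKM used GENCODE 44 exon bases inside the counted extent. Totals of 35304770 to 44003970 counts set the precision.

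The methods describe seeding, treatment and extraction as an experiment that was repeated. The labels number the replicates without tying a number to a repeat, so p-values measure the spread between these libraries, which may be technical. Deviations from group means of same-numbered control and HGF libraries correlated positively over genes. The values were 0.116 to 0.399 in Detroit 562, 0.324 to 0.511 in FaDu and 0.168 to 0.282 in SCC-9. Means for different numbers were -0.122, -0.201 and -0.115. Subtracting group means makes these negative once the same-number values are positive, so they are no separate support. On the positive values the numbers were taken to pair the libraries, and a blocked fit was run. All 9 members are named. Of each list the up to 4 highest and 4 lowest called genes in Detroit 562 with a mean of at least 50 counts are named, and for each member the 2 genes of highest Pearson r with a mean of at least 50. Some called genes of the lists are not reported here. The members and lists were chosen with earlier results of these data known. Fits were tested on simulated counts. Alternatives were the block, DESeq2 with and without its prior, DESeq2 size factors, no filter, at least 50 counts in 3 libraries, 1 line alone and each library left out.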

Additional observations from a re-analysis of the deposited data

How the results depend on the processing

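The calls in FaDu and SCC-9 and the differences in response turned on the replicate block. In FaDu 0 members were called, 1 by DESeq2 with or without its prior and 3 with the block, and in SCC-9 0 and 1. Response differences went from 0 to 5 members (Detroit 562 against FaDu), to 4 with the block and 2 by both DESeq2 fits (Detroit 562 against SCC-9), and to 2 (FaDu against SCC-9). The block removes the spread shared by same-numbered libraries and changed no other call than these and that of ZNF750 between untreated Detroit 562 and SCC-9. Leaving out 1 library gave 2 to 6 members called in Detroit 562, with 2 without control 1, and 0 to 2 for the response of Detroit 562 against SCC-9, with 2 without Detroit 562 control 3. The other counts of members stayed within 1.5 times under every alternative run.

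Small differences changed sign when 1 library was left out, none of them called. In FaDu the log2 difference of KLF4 ran from -0.13 to 0.13, KLF5 from -0.052 to 0.14, PITX1 from -0.22 to 0.012 and TP63 from -0.048 to 0.21. In SCC-9 KLF5 ran from -0.17 to 0.0098, PAX9 from -0.29 to 0.16, PITX1 from -0.097 to 0.020 and SOX2 from -0.52 to 0.18. The response of FaDu against SCC-9 ran from -0.36 to 0.094 for PAX9 and from -0.43 to 0.19 for ZNF750. The cause was not tested. Counts of 2 to 8 reads limit SOX2 in SCC-9 and of 8 to 57 reads the lowest ZNF750 libraries of Detroit 562.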

Other observations

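Replicates of 1 group differed among themselves in GRHL3, ZNF750 and TP73, and in Detroit 562 less in PAX9, whose controls had 114, 104 and 105 CPM. PAX9 varied more elsewhere, 1.82-fold in FaDu with HGF and 1.69-fold in SCC-9 controls. In Detroit 562 the control of replicate 3 had 21.4 CPM of GRHL3 against 34.8 and 40.7 in the others, 1.54 CPM of ZNF750 against 3.26 and 3.58, and 8.13 CPM of TP73 against 13.1 and 14.2. Its HGF partner was also the lowest of the HGF libraries for these 3 genes, at 6.72, 0.243 and 5.39 CPM. In SCC-9 replicate 1 was the lowest in both arms, with 6.53 and 5.28 CPM of GRHL3, 2.27 and 1.98 of ZNF750 and 8.16 and 5.78 of TP73. After the mean of each of the 6 groups was taken out, GRHL3 and ZNF750 still correlated at a Pearson r of 0.906 over the 18 libraries, TP63 and TP73 at 0.88 and TP73 and ZNF750 at 0.874, given as descriptions with no p. KLF4 and GRHL3 gave -0.137.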
